A study of Mus musculus with 8 samples.

Results

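Follicular helper T cells are the CD4 T cells that enter B cell follicles and help B cells through the germinal centre reaction. The transcription factor Bcl6 directs this programme, the chemokine receptor Cxcr5 brings the cells to the follicle, the costimulatory receptor Icos sustains them, and the cytokine Il21 and the adaptor Sh2d1a (also called SAP) serve their contact with B cells. Pdcd1 (PD-1), Cd200 and Btla are receptors or surface proteins that restrain or mark the cells, Slamf6 is a SLAM family receptor whose signal runs through Sh2d1a, and Tox is a nuclear factor found in these cells and in other T cells under lasting stimulation. These 10 genes were followed in splenic CD4 T cells with and without Ahr, which encodes the aryl hydrocarbon receptor, a transcription factor that acts when bound by a ligand. All probe sets (groups of short probes for 1 transcript region) annotated with one of these symbols as the only gene were taken. They came to 13 probe sets for 9 of the 10 genes, out of 22626 probe sets tested. Btla had none and was not analysed here.

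The CD4 T cells were sorted by flow cytometry from spleens of female mice, 8 to 12 weeks old, that were wild type C57BL/6 (WT), or carried a knockout of Ahr backcrossed to that strain (KO). They were injected intraperitoneally with 10 µg/kg TCDD, the prototypical receptor ligand, or with DMSO, both in corn oil, and killed after 24 h. The 4 groups (WT DMSO, WT TCDD, KO DMSO, KO TCDD) had 2 arrays each, and the RNA of 4 animals was pooled for every array. The labels call the 2 arrays biological duplicates, and the number of arrays limits the precision. The cells were whole splenic CD4 T cells, not sorted for Cxcr5 or Pdcd1. In bulk RNA, fewer cells that express a gene and less RNA of it per cell cannot be told apart.

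Values are log2 expression levels, and a difference of 1 is a doubling. The array medians lay between 6.08 and 6.15, and the correlation between the 2 arrays of a group between 0.967 and 0.992. The WT arrays numbered 2 stood apart from the other 6 along the main axis of variation, with the lowest log2 difference between the 3′ and 5′ actin control probe sets (2.90 and 3.30, against 3.48 to 4.56 on the other 6 arrays). The description of WT TCDD replicate 1 says knockout, against its title, source and strain, by which it was placed in WT. Ahr itself read 6.49 to 7.08 in KO and 6.11 to 6.29 in WT on 1 probe set and overlapped on the other, neither called (limma, BH adjusted p = 0.0658 and 0.906, with BH for Benjamini-Hochberg), and the probes' place relative to the deletion is unknown here, so this checks no label. Of the T cell markers, some given below differed more, in both directions, and none was called. Cd3e read 9.36 ± 0.17 in KO and 9.53 ± 0.09 in WT, and the brighter Cd4 probe set 8.16 ± 0.09 and 8.37 ± 0.28 (SD, n = 4 each), all above the median probe set mean of 6.13. Near and below that median, background can compress differences on such arrays, which was not tested here. Of the 13 probe sets, 5 had a mean above it (1 of Bcl6 and both of Icos and of Slamf6) and 8 below it.

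Promoter sequence was held in the RefSeq table (GRCm38.p6) for 6 of the 10 genes, in 7 entries, and the entries for Cxcr5, Icos, Sh2d1a and Tox were not among them. The 250 bases before the start were searched on both strands for GCGTG, the core of the site that the aryl hydrocarbon receptor binds. Of the 7 entries, 1 held it, that of Il21, on the opposite strand and 142 bases before the start, and 28.2% of all 32851 entries did. The 4 sequences below are shown for Il21 (the entry with the match), Pdcd1 (a gene whose levels did not overlap between genotypes) and Bcl6 (the gene with 2 starts and with 2 probe sets that differed in opposite directions). All lie on the minus strand and are written 5′ to 3′ toward the start, with the core match in capitals.
Il21, chr3:37232637-37232886: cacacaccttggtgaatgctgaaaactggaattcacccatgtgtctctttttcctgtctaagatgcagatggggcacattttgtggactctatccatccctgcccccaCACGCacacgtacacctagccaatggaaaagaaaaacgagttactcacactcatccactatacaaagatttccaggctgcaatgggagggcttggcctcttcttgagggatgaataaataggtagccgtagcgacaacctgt
Pdcd1, chr1:94052554-94052803: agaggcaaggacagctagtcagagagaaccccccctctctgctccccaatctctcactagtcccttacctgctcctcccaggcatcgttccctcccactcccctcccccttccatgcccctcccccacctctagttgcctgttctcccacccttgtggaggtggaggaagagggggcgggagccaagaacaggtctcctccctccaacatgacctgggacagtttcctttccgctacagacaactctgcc
Bcl6, outer start, chr16:23988853-23989102: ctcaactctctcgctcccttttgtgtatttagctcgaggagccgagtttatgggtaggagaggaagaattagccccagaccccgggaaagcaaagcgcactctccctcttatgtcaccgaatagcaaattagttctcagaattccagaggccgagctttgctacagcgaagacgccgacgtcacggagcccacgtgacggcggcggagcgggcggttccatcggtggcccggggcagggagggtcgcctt
Bcl6, inner start, chr16:23981284-23981533: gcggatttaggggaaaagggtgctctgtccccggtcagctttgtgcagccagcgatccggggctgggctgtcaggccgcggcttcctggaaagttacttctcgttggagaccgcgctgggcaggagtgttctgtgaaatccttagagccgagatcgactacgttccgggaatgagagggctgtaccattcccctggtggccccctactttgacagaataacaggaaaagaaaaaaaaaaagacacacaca
The windows differ in composition: G and C made up 58.4% of the outer Bcl6 window, which held 21 CG pairs, and 47.6% of the Il21 window, which held 5. A match describes letters in this window and no match says only that the letters are not there.

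The genotype comparison asks how loss of the receptor changes the resting CD4 T cell transcriptome, and the study pooled treated and solvent arrays for it. Of the 13 probe sets, 1 passed, that of Cxcr5, which rose in KO. The other 12 did not pass, and they did not share a direction: 6 of the 13 probe sets read higher in KO and 7 lower. Their median difference was −0.06 log2, beside −0.005 over all probe sets. Among all 22626 probe sets, 2.79% were called (1.59% higher and 1.2% lower in KO; limma, BH adjusted p under 0.05). The split of all calls, 360 higher and 271 lower, was 375 and 184 after median centring, and it turned with the actin covariate (709 and 1125), among the brighter probe sets alone (424 and 460), without WT TCDD replicate 1 (288 and 379) and without KO DMSO replicate 1 (248 and 318). The count of 1 was 0 on leaving out any 1 of 6 arrays, named below for Cxcr5. At an unadjusted limma p under 0.05 there were 6 of the 13 probe sets, where 20.5% of all probe sets were.

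**Figure D1:**
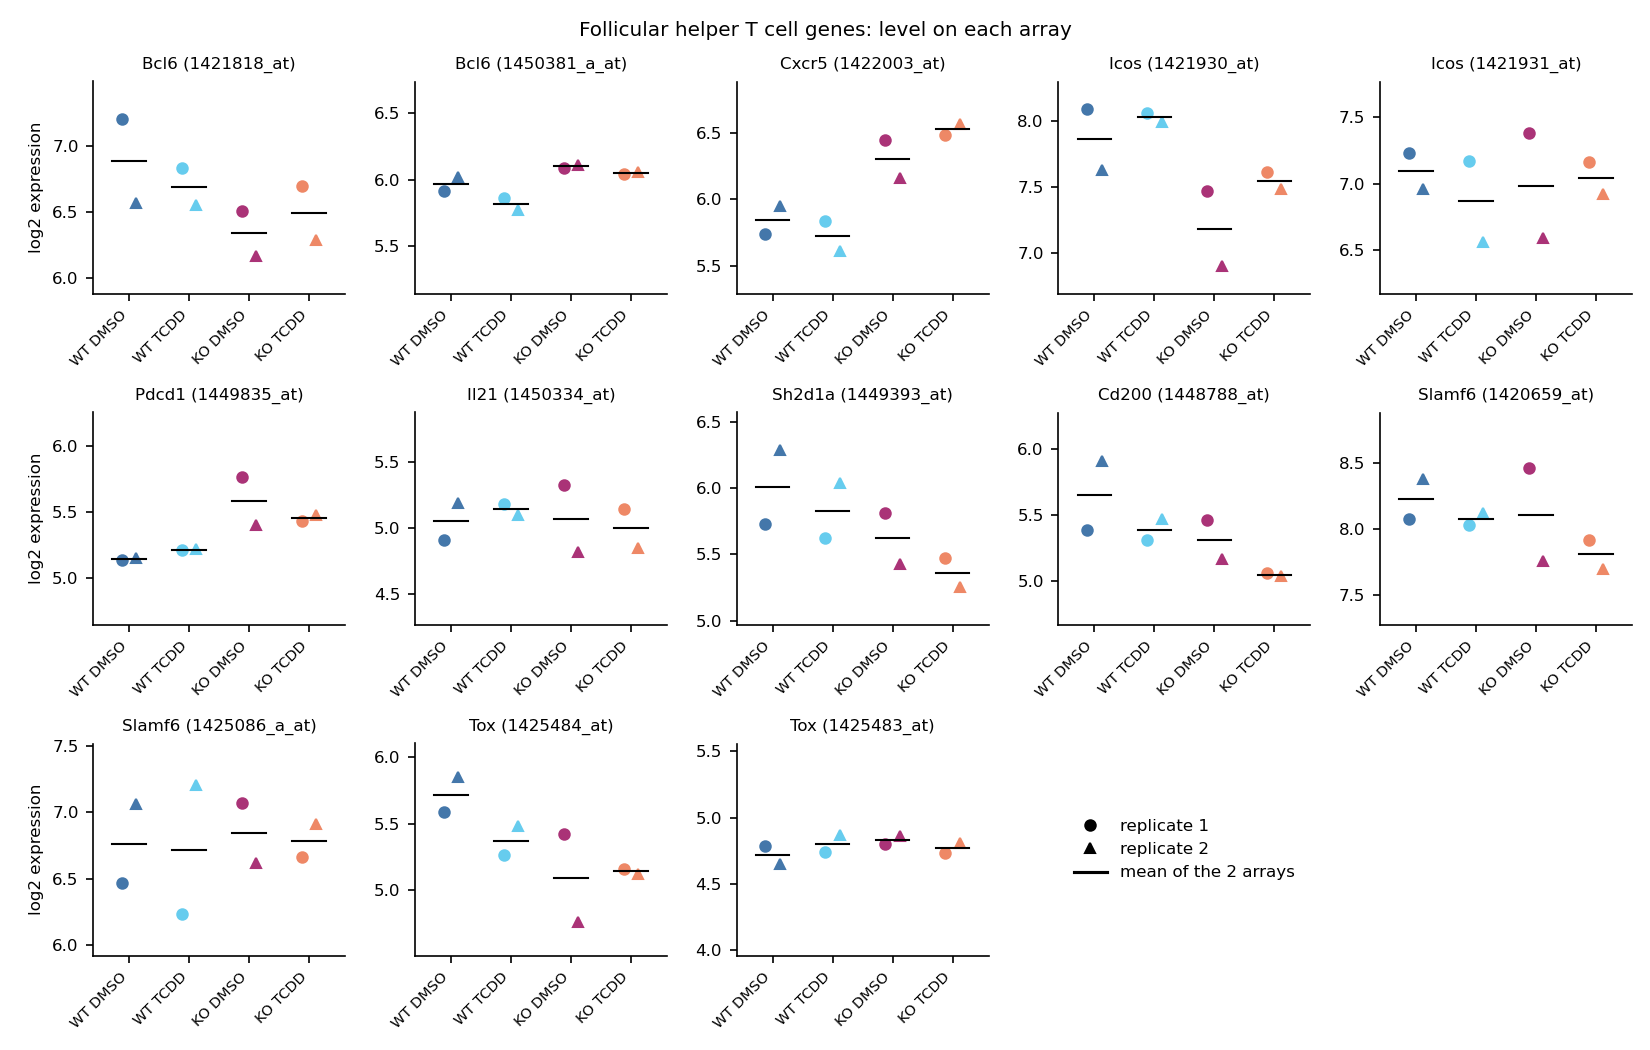
Log2 expression (vertical axis, a span of at least 1.6 in each panel) of the 13 probe sets on each of the 8 arrays, by group. Circles are replicate 1, triangles replicate 2 and lines the mean of the 2 arrays; Cxcr5 is the panel in which all 4 KO arrays lie above all 4 WT arrays by the widest margin, and the first Icos panel is the one in which all lie below.

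Cxcr5 is the receptor for Cxcl13, the chemokine of B cell follicles. In KO it read 6.45 and 6.16 after DMSO and 6.49 and 6.57 after TCDD. In WT it read 5.74 and 5.95 after DMSO and 5.84 and 5.61 after TCDD. All 4 KO arrays lay above all 4 WT arrays, with the lowest KO array at 6.16 and the highest WT array at 5.95. The difference was 0.63 log2 (SE 0.11), a 1.55-fold higher level in KO (limma, BH adjusted p = 0.0332; by exact permutation, two-sided, p = 0.0286, the smallest that 70 arrangements of 4 against 4 allow). By group the mean was highest in KO TCDD (6.53), then KO DMSO (6.305), WT DMSO (5.845) and WT TCDD (5.725). Both KO TCDD arrays lay above both KO DMSO arrays, by as little as 0.04, and the WT groups overlapped.

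The Cxcr5 call was lost on leaving out most of the single arrays. Its direction did not change in any of the 18 alternatives that gave it a value. Where arrays were only left out this was fixed in advance, since every KO array lay above every WT array. Leaving out 1 KO array raised its limma BH adjusted p to 0.0535 (DMSO, number 1), 0.0984 (TCDD, number 1) or 0.103 (TCDD, number 2), and leaving out 1 WT array raised it to 0.0599 (DMSO, number 1), 0.0566 (DMSO, number 2) or 0.0814 (TCDD, number 2). It stayed called without KO DMSO replicate 2 (limma, BH adjusted p = 0.0243) and when the array of conflicting description was left out (0.65 log2; limma, BH adjusted p = 0.0459). Without both WT arrays numbered 2 the difference was 0.63 (limma, BH adjusted p = 0.134). From the DMSO arrays alone it was 0.46 and from the TCDD arrays alone 0.805 (limma, BH adjusted p = 0.685 and 0.181).

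**Figure D2:**
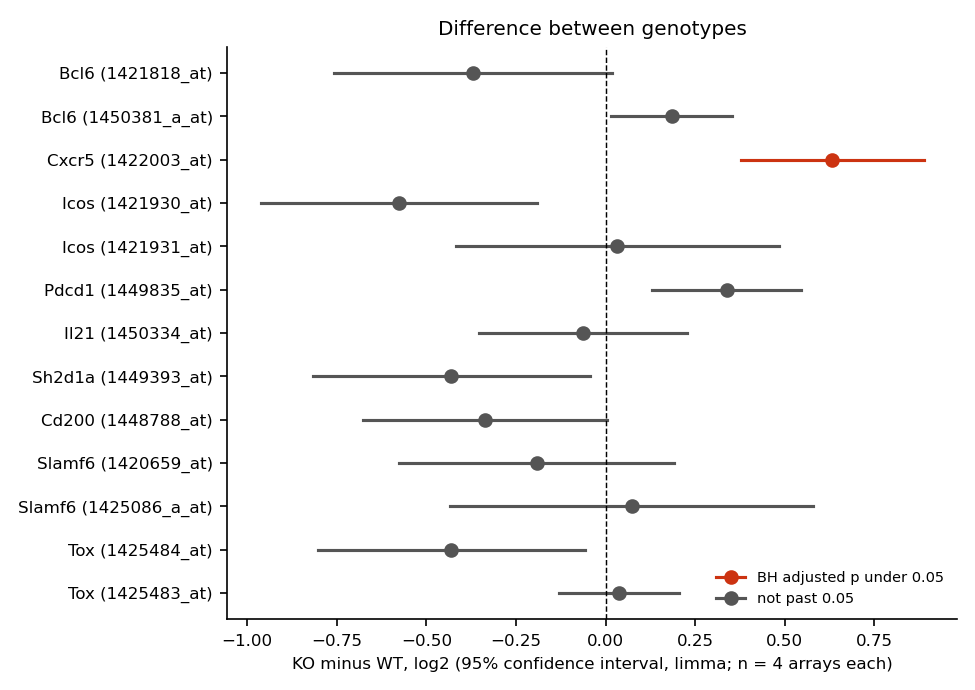
KO minus WT difference in log2 expression (horizontal axis) with its 95% confidence interval from limma for the 13 probe sets, 4 arrays per genotype. The Cxcr5 probe set, in red, lies at 0.63 and is the only one past a BH adjusted p of 0.05; the 2 probe sets of each of Bcl6, Icos, Slamf6 and Tox lie on opposite sides of 0.

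Icos, the costimulatory receptor that maintains follicular helper T cells, has 2 probe sets that differed. On the brighter (1421930_at), KO arrays read 7.47 and 6.90 after DMSO and 7.61 and 7.48 after TCDD. WT arrays read 8.09 and 7.63 after DMSO and 8.06 and 7.99 after TCDD. All 4 KO arrays lay below all 4 WT arrays, by a margin of 0.02 between KO TCDD replicate 1 (7.61) and WT DMSO replicate 2 (7.63). The difference was −0.58 log2 (SE 0.17; 95% interval −0.96 to −0.19) which misses the threshold over all probe sets (limma, BH adjusted p = 0.103; by exact permutation, two-sided, p = 0.0286). It passed in 1 of 19 alternatives, with array weights (−0.51; limma, BH adjusted p = 0.0403). On the other probe set (1421931_at) KO read 7.01 ± 0.34 and WT 6.98 ± 0.30 (SD, n = 4 each). Its levels overlapped, from 6.59 to 7.38 in KO and from 6.56 to 7.23 in WT, and the difference of 0.03 had a 95% interval from −0.42 to 0.48 (limma, BH adjusted p = 0.951). The 2 probe sets correlated at r = 0.32 over the 8 arrays, given as a description.

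Pdcd1 encodes PD-1, an inhibitory receptor that follicular helper T cells carry at a high level. KO arrays read 5.76 and 5.40 after DMSO and 5.43 and 5.48 after TCDD, and WT arrays 5.14 and 5.15 after DMSO and 5.21 and 5.22 after TCDD. All 4 KO arrays lay above all 4 WT arrays, with KO DMSO replicate 1 the highest, and every value lay below the median probe set mean. The difference was 0.34 log2 (SE 0.09; 95% interval 0.13 to 0.55) and missed the threshold (limma, BH adjusted p = 0.0876; by exact permutation, two-sided, p = 0.0286). It passed in 1 of 18 alternatives, again with array weights (0.35; limma, BH adjusted p = 0.0427). Without KO DMSO replicate 1 it was 0.26 (limma, BH adjusted p = 0.107).

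Bcl6 is the repressor at the head of the programme, and its 2 probe sets differed in opposite directions. On the brighter (1421818_at), KO arrays read 6.51 and 6.17 after DMSO and 6.70 and 6.29 after TCDD, and WT arrays 7.20 and 6.57 after DMSO and 6.83 and 6.55 after TCDD. The genotypes overlapped, since KO TCDD replicate 1 lay above both WT arrays numbered 2. The difference was −0.37 (SE 0.17; limma, BH adjusted p = 0.265; by exact permutation, two-sided, p = 0.114), −0.60 without both WT arrays numbered 2 (limma, BH adjusted p = 0.217), −0.23 without WT DMSO replicate 1 (0.454), −0.545 from the DMSO arrays alone and −0.195 from the TCDD arrays alone. On the dimmer (1450381_a_at), KO arrays lay between 6.04 and 6.11 and WT arrays between 5.77 and 6.02, without overlap. That difference had a 95% interval from 0.02 to 0.35 (limma, BH adjusted p = 0.202; by exact permutation, two-sided, p = 0.0286). The 2 probe sets correlated at r = −0.53 over the 8 arrays.

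In all, 4 of the 13 probe sets did not overlap between genotypes: those of Cxcr5 and Pdcd1 and the dimmer of Bcl6 lay higher in KO, and the brighter of Icos lower. Among all probe sets 5.67% lay wholly higher in KO and 6.67% wholly lower, 12.3% in all. For these 4 the two-sided exact permutation p of 0.0286 restates the lack of overlap and adds no evidence to it. It is not adjusted over probe sets, and its arrangements disregard treatment and array number.

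**Figure D3:**
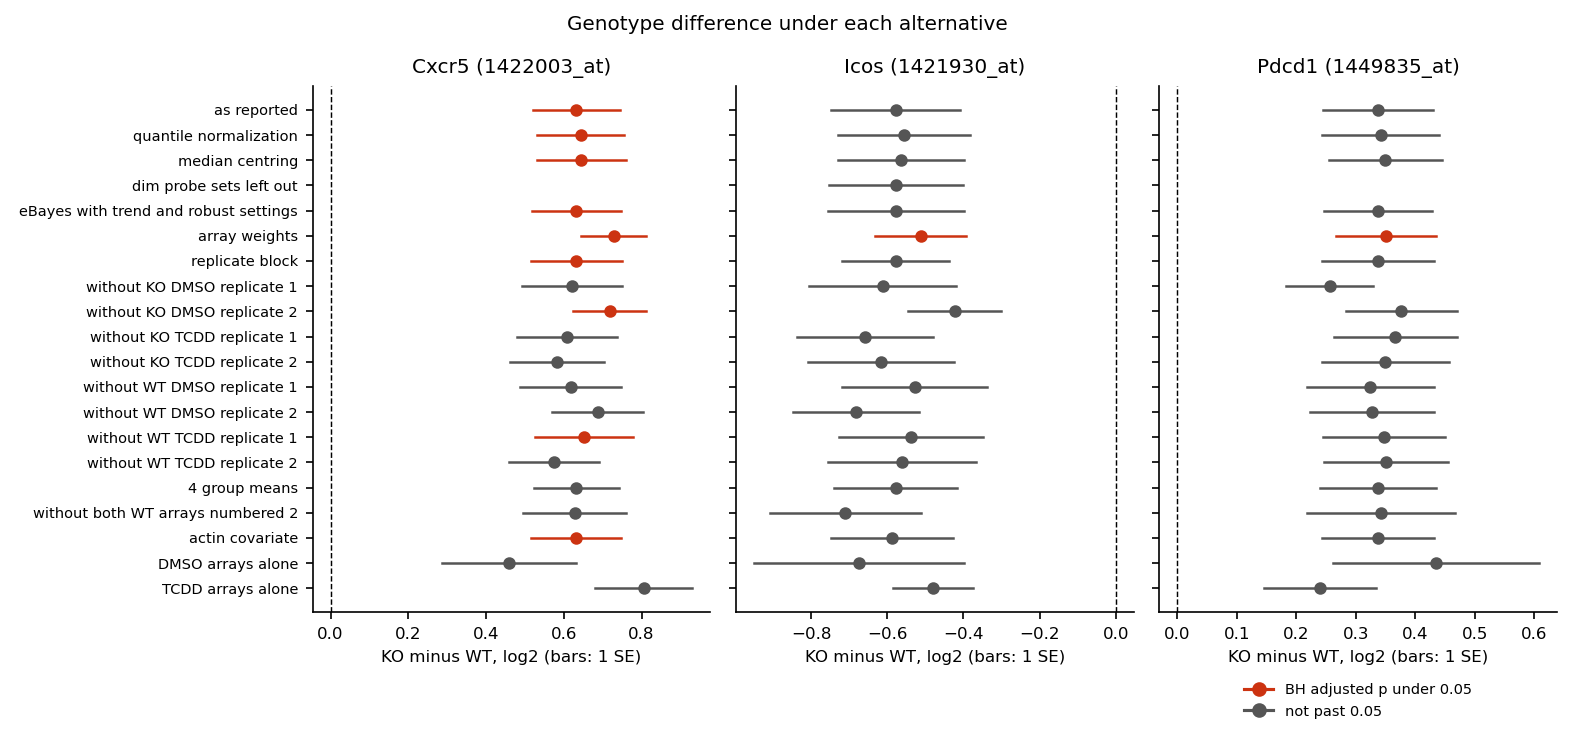
KO minus WT difference in log2 expression (horizontal axis, points with bars of 1 SE from limma) for Cxcr5, the brighter Icos probe set and Pdcd1 under each alternative (vertical axis). Red marks a BH adjusted p under 0.05. All points of a gene lie on 1 side of 0, between 0.46 and 0.805 for Cxcr5, and a missing point is a probe set that the alternative leaves out. The genotypes did not overlap on these probe sets, so leaving out arrays could not move a point across 0.

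Sh2d1a encodes SAP, the small adaptor that couples SLAM family receptors to the kinase Fyn. KO arrays read 5.81 and 5.43 after DMSO and 5.47 and 5.25 after TCDD, and WT arrays 5.73 and 6.29 after DMSO and 5.62 and 6.04 after TCDD. The highest values were those of the WT arrays numbered 2, which lay above the WT arrays numbered 1 by 0.56 and 0.42, and KO DMSO replicate 1 lay above both WT arrays numbered 1. The difference of −0.43 (SE 0.17) missed the threshold (limma, BH adjusted p = 0.198; by exact permutation, two-sided, p = 0.0857). Without both WT arrays numbered 2 it was −0.185 (limma, BH adjusted p = 0.66).

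Slamf6 (Ly108) is a receptor that signals through this adaptor. Its brighter probe set (1420659_at) ranged from 7.70 to 8.46 in KO and from 8.03 to 8.38 in WT, and its dimmer (1425086_a_at) from 6.62 to 7.07 and from 6.23 to 7.21. The genotypes overlapped on both, and the differences were −0.19 (95% interval −0.58 to 0.19) and 0.07 (−0.43 to 0.58), with limma BH adjusted p of 0.583 and 0.894. The brighter probe set read −0.36 without KO DMSO replicate 1 (limma, BH adjusted p = 0.126), −0.11 without KO TCDD replicate 2 and −0.095 without both WT arrays numbered 2. On the dimmer probe set the WT arrays numbered 2 lay 0.59 (DMSO) and 0.98 (TCDD) above those numbered 1, and without them the difference was 0.465 (limma, BH adjusted p = 0.256).

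Cd200 encodes a surface glycoprotein that engages an inhibitory receptor on myeloid cells, and it marks activated and follicular helper T cells. It read 5.46 and 5.17 in KO after DMSO and 5.06 and 5.04 after TCDD, and 5.39 and 5.91 in WT after DMSO and 5.31 and 5.47 after TCDD. KO DMSO replicate 1 lay within the WT range, and the other 3 KO arrays lay below it. The difference of −0.34 (SE 0.15) missed the threshold (limma, BH adjusted p = 0.248; by exact permutation, two-sided, p = 0.0857), and it was −0.17 without both WT arrays numbered 2 and −0.21 without WT DMSO replicate 2 alone.

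Tox had 2 probe sets, both below the median probe set mean. The brighter (1425484_at) read 5.42 and 4.76 in KO after DMSO and 5.16 and 5.12 after TCDD, and 5.59 and 5.85 in WT after DMSO and 5.26 and 5.48 after TCDD. The genotypes overlapped through KO DMSO replicate 1, and the difference was −0.43 (SE 0.16; limma, BH adjusted p = 0.181; by exact permutation, two-sided, p = 0.0571). The dimmer (1425483_at) lay between 4.65 and 4.87 on all 8 arrays, with a difference of 0.04 (limma, BH adjusted p = 0.83).

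Il21, the cytokine by which follicular helper T cells act on germinal centre B cells, read low, with 24.1% of all probe sets at or below its mean. KO arrays spanned 4.82 to 5.32 and WT arrays 4.91 to 5.19, and the genotypes overlapped. The difference was −0.06 (95% interval −0.35 to 0.23; limma, BH adjusted p = 0.836).

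TCDD against DMSO asks whether receptor activation over 24 h changes the same genes, and whether it does so without the receptor. Limma called 0 of the 13 probe sets in WT and 0 in KO, where 0% of all probe sets were called in either, and 0 of the 13 had an unadjusted p under 0.05 (2.79% of all probe sets in WT and 1.69% in KO). The difference furthest from 0 in WT was that of the brighter Tox probe set, −0.35 (SE 0.23; limma, BH adjusted p = 0.997). In KO it was that of the brighter Icos probe set, 0.36 (SE 0.23; limma, BH adjusted p of 1 after rounding). Cxcr5 differed by −0.12 in WT (95% interval −0.49 to 0.25) and by 0.23 in KO (−0.14 to 0.59). Bcl6 differed by −0.195 and −0.15 in WT and by 0.155 and −0.05 in KO, its brighter probe set first. Cd200 read lower after TCDD in both genotypes, by −0.26 in WT (SE 0.20) and −0.27 in KO (SE 0.20), and neither passed. Sh2d1a did too (−0.18 in WT and −0.26 in KO), as did the dimmer Bcl6 probe set. Both Slamf6 probe sets also read lower, by −0.155 and −0.045 in WT and by −0.30 and −0.06 in KO, the brighter first. The brighter Icos probe set read higher in both, by 0.165 in WT and 0.36 in KO. Of the 13 probe sets, 4 read higher and 9 lower in WT, and 5 higher and 8 lower in KO. Over all probe sets 55.2% and 57.2% read higher.

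**Figure D4:**
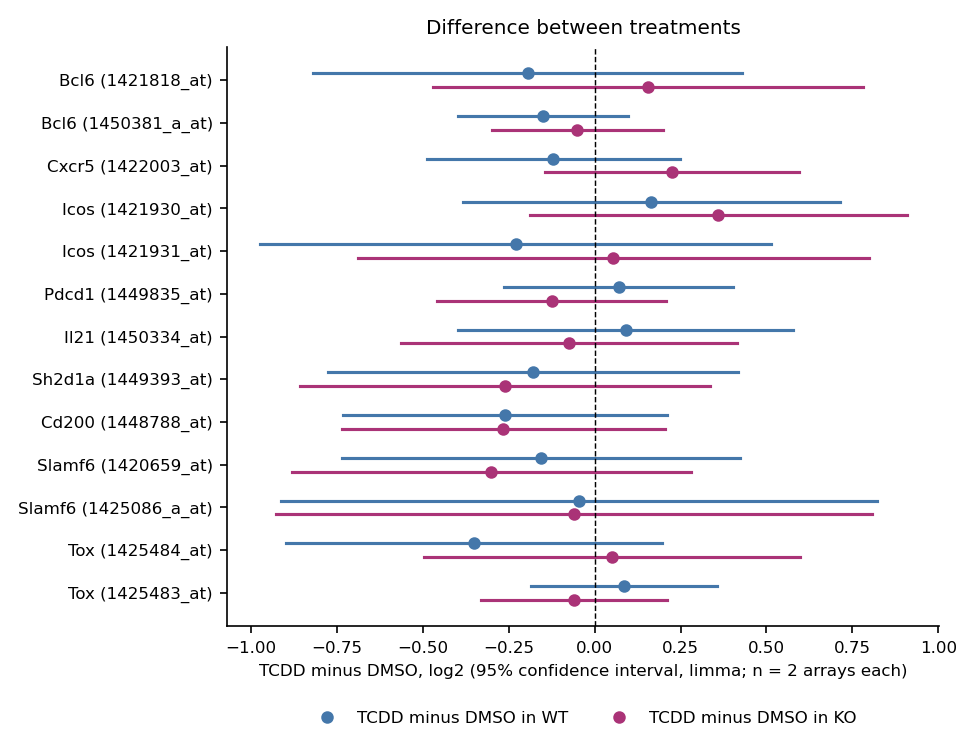
TCDD minus DMSO difference in log2 expression (horizontal axis) with its 95% confidence interval from limma, in WT (blue) and KO (purple), 2 arrays per group, for the 13 probe sets. Each of the 26 intervals includes 0.

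The interaction, the TCDD effect in KO minus that in WT, was called for 0 of the 13 probe sets, none of which had an unadjusted limma p under 0.05, where 0% of all probe sets were called and 2.78% had such a p. The values furthest from 0 were those of Tox (brighter probe set, 0.40, SE 0.32), Bcl6 (brighter, 0.35, SE 0.37) and Cxcr5 (0.345, SE 0.22; 95% interval −0.18 to 0.87). With 2 arrays a group an exact permutation test of single levels cannot reach 0.05.

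Genes that act with the members were taken from 3 lists. Of 34 probe sets (23 genes) of other factors that promote or mark follicular helper T cells, 0 were called higher in KO and 2 lower, with a median of 0.02. Itch, a ubiquitin ligase needed by these cells, fell by 0.42 (WT 8.72 ± 0.05, KO 8.30 ± 0.05; SD, n = 4 each; limma, BH adjusted p = 0.0226). Il6st (gp130, the signalling chain of the Il6 receptor) fell by 0.96 on 1 of its 3 probe sets, from 8.66 ± 0.29 to 7.70 ± 0.36 (limma, BH adjusted p = 0.0464). Its other probe sets read −0.20 and −0.12. The cytokine Il4 read 0.40 higher in KO, the B cell help ligand Cd40lg 0.28 higher and Batf 0.32 higher (limma, BH adjusted p = 0.23, 0.35 and 0.276). Id3, an inhibitor of E proteins, read −0.51 (0.234). Maf read 0.155, Irf4 0.20 and 0.12, and Ascl2 0.11, 0.04 and −0.12 on their probe sets, and none passed. Tcf7 was not analysed here.

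Of 35 probe sets (18 genes) that oppose the lineage or keep T cells out of follicles, 1 was called higher in KO and 2 lower, with a median of 0.005. Both lower calls were of Foxo1, a transcription factor that restrains the programme. It fell by 1.23 and 0.62 on 2 of its 4 probe sets (limma, BH adjusted p = 0.034 and 0.0392), and the other 2 read −0.15 and −0.03. Id2, an inhibitor of the E proteins that favour Cxcr5, rose by 1.09 on 1 probe set (10.48 ± 0.32 in KO, 9.40 ± 0.40 in WT; SD, n = 4 each; limma, BH adjusted p = 0.0428). Its other 2 probe sets read −0.08 and −0.51 and did not pass. Prdm1 (Blimp-1), the repressor that Bcl6 counteracts, read 6.07 ± 0.13 and 6.01 ± 0.15 (limma, BH adjusted p = 0.797).

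Of 39 probe sets (22 genes) of ligands, receptors and signalling partners of the members, 1 was called higher in KO and 1 lower, with a median of 0.03. Ly9, a SLAM family receptor that binds the Sh2d1a adaptor like Slamf6, rose by 1.19 (WT 8.15 ± 0.27, KO 9.34 ± 0.22; SD, n = 4 each; limma, BH adjusted p = 0.0125). This call held on leaving out each array in turn (1.08 to 1.30) and not without both WT arrays numbered 2 (limma, BH adjusted p = 0.0896). Pik3r1, the regulatory subunit of the kinase that Icos recruits, fell by 1.08 on 1 of its 3 probe sets (limma, BH adjusted p = 0.0362), and the others read 0.04 and −0.15. The ligands and receptors named next were picked with their values known. The PD-1 ligands Pdcd1lg2 and Cd274 read 0.41 and 0.25 higher in KO, the Icos ligand Icosl 0.32 and 0.14, and the Btla partner Tnfrsf14 0.005 (limma, BH adjusted p = 0.0974, 0.221, 0.151, 0.712 and 0.986). The Cd200 receptor Cd200r1 read −0.16 and the Il21 receptor Il21r 0.14, and neither passed.

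Of the 7 calls in these 3 lists, 6 were lost on leaving out 1 array or another, the exception being Ly9, and the Id2 call needed all 8 arrays. Itch and the lesser Foxo1 fall were also lost after quantile normalization (limma, BH adjusted p = 0.0904 and 0.0981) and with trend and robust variance settings (0.0891 and 0.0628), and Il6st after median centring (0.0593). There were 4 with the second KO DMSO array left out, and 1 with either KO TCDD array or either WT array numbered 2 left out. Without both WT arrays numbered 2 there were 0, with 24 at an unadjusted limma p under 0.05. The shares called (5.88%, 8.57% and 5.13%) stand beside 2.79% over all probe sets, and no set test was made. Most probe sets of these lists lay above the median level (23 of 34, 26 of 35 and 27 of 39). With dim probe sets left out, 7.81% of all probe sets were called.

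**Figure D5:**
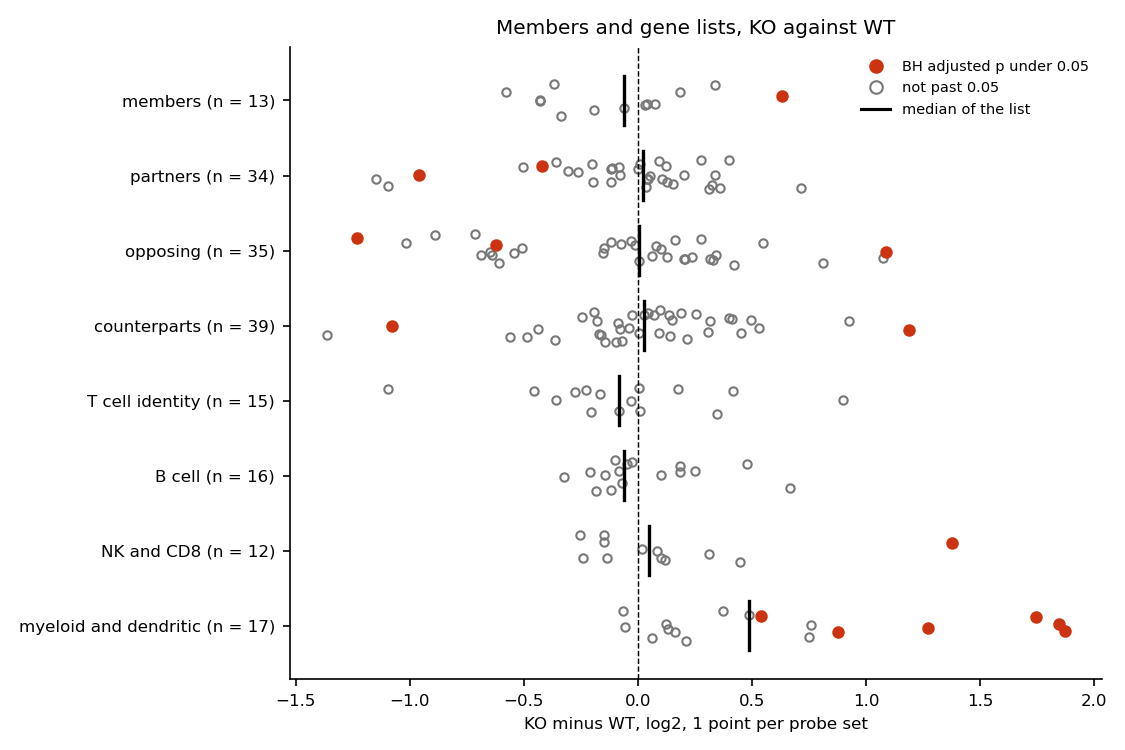
KO minus WT difference in log2 expression (horizontal axis) of each probe set of the members, the 3 pathway lists and 4 cell type marker lists, 1 point per probe set with n in brackets and the list's median as a bar. Red marks a BH adjusted p under 0.05; the myeloid and dendritic list has 6 of 17 red points, all above 0, and the B cell and T cell identity lists have 0.

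B cells also express Cxcr5, Slamf6, Cd200 and Bcl6, and their markers were read beside the members. Of 16 B cell marker probe sets (11 genes) 0 were called, with a median of −0.06 and 5 above the median level. Their mean per array ran from 5.41 to 5.71 in KO and from 5.31 to 5.63 in WT, which overlap. Cd79a read 5.59 ± 0.20 in KO and 5.67 ± 0.05 in WT, and Ms4a1 5.89 ± 0.43 and 6.21 ± 0.56 on its brighter probe set (SD, n = 4 each). Other B cell markers, singled out with their values known, read higher in KO: Cd79b by 0.67, Blnk by 0.48 without overlap and Cd72 by 0.25 (limma, BH adjusted p = 0.374, 0.0753 and 0.151). Others, picked likewise, read lower: 1 Ebf1 probe set by −0.14 without overlap, Fcer2a by −0.185 and −0.07, and Cr2 by −0.12. The list's median was 0.10 without both WT arrays numbered 2, with 0 called. Of 17 myeloid and dendritic probe sets (11 genes), 6 were called, all higher in KO: Cd68 by 1.87, C1qb by 1.85 and 1.74, Csf1r by 1.27, Flt3 by 0.88 and C1qc by 0.54 (limma, BH adjusted p = 0.00383 to 0.0289). The other probe sets of C1qb (0.76) and Csf1r (0.49 and 0.12) did not pass. Neither did C1qa (0.75), Itgax (0.37), Adgre1 (0.16), Lyz2 (0.13), Cd14 (−0.07) or Zbtb46 (0.21, 0.06 and −0.055). The list's mean per array was 6.53 to 6.94 in KO and 6.01 to 6.20 in WT, without overlap, and 2 of the 6 calls were made without both WT arrays numbered 2. Of 12 NK and CD8 probe sets 1 was called, Nkg7, higher in KO by 1.38 (limma, BH adjusted p = 0.0214), and of 15 T cell identity probe sets 0 were called. The T cell identity median was −0.08, and probe sets picked with their values known went both ways. Cd5 read 0.90 higher in KO without overlap, Thy1 0.415 higher and the dimmer Cd28 probe set −1.10 (limma, BH adjusted p = 0.0644, 0.156 and 0.0727). The other 11 NK and CD8 probe sets did not pass, the list's median was 0.05, Nkg7 was not called without both WT arrays numbered 2, and Eomes (1 of 2 probe sets), Prf1 (1 of 2) and Cd8a (1 of 2), singled out with their values known, read lower on all KO than on all WT arrays, by −0.25, −0.24 and −0.15. The 6 myeloid and dendritic probe sets and Nkg7 were higher in KO, as Cxcr5 was, and their part in the differences of the members was not tested.

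The genes of most like pattern were sought for the 3 members whose brightest probe set lay above the median level, by Pearson correlation with that probe set alone over the 8 arrays. Genotype, treatment and array quality differ among these arrays, and their part in the correlations was not tested. For Bcl6 they were Oga, the enzyme that removes O-GlcNAc (r = 0.98), and the transcription factor Ets1 (r = 0.97). For Icos they were Rab12, a small GTPase, and Rbm15, an RNA-binding protein (r = 0.98 each). For Slamf6 they were Hmgn5 (r = 0.96) and the splicing factor subunit Sf3b6 (r = 0.95). None of these 6 was called in KO against WT (limma, BH adjusted p = 0.129 to 0.767). These genes were the highest of all candidates, which favours high correlations. The dimmer probe set of the same member reached r = −0.53 (Bcl6), 0.32 (Icos) and 0.41 (Slamf6) with the brighter.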

How the data were processed

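Per the submitters' processing notes, the authors made the deposited log2 expression values with RMA from the affy package, of versions not given in the sources used here. Of 22690 probe sets, 64 controls were left out. In the array annotation 20380 tested probe sets had 1 gene symbol, 691 several and 1555 none, and no gene was named from a probe set with several. Groups came from the array titles. KO was compared with WT over 8 arrays (4 against 4), and TCDD with DMSO and the interaction in a model of 4 group means, with limma 3.58.1 in R 4.3.3 (lmFit, eBayes) and Benjamini-Hochberg adjustment over all 22626 probe sets; an adjusted p under 0.05 was called. The scripts were tested on simulated data. Members, lists and rules were chosen with earlier results of these data known. Named were all member probe sets, called list probe sets, preset genes (Prdm1, Maf, Ascl2, Il4, Cd40lg, Irf4, Batf, Tcf7, Id3, Cd79a, Ms4a1, Cd4 and Cd3e; 1 other is not reported here) and, for each member with its brightest probe set above the median, the 2 most correlated genes. Promoters came from RefSeq (GRCm38.p6). Alternatives were other normalization, centring, filter, variance and weight settings, a replicate block, an actin covariate, other models, treatments alone and arrays left out.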

Additional observations from a re-analysis of the deposited data

How the results depend on the processing

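No member was called for TCDD in WT, TCDD in KO or the interaction in any of the 14 alternatives run for each. As first reported, 0% of all probe sets were called for each of these, and the share over all probe sets in the alternatives was not counted. For KO against WT, Cxcr5 kept its direction in all 18 alternatives that tested it and its call in 8, and Icos (brighter probe set), Pdcd1, Sh2d1a, Cd200, both Bcl6 probe sets and the brighter Tox and Slamf6 probe sets kept their direction in every alternative that tested them. Cxcr5, Pdcd1, the brighter Icos and the dimmer Bcl6 probe sets did not overlap between genotypes. For them, leaving out arrays could not change the direction. The count of members called, 1, was 3 with array weights (Cxcr5, Icos and Pdcd1) and 0 with dim probe sets left out, where Cxcr5 lies under the median and was not tested, with 4 group means, without both WT arrays numbered 2, and from the DMSO or the TCDD arrays alone; leaving out 1 array gave 0 to 1. The count over all probe sets, 631, was 985 after quantile normalization, 1604 with array weights, 1834 with the actin covariate, 161 with 4 group means, 28 without both WT arrays numbered 2 and 0 from the DMSO or TCDD arrays alone (1545 and 2832 at an unadjusted limma p under 0.05); leaving out 1 array gave 109 to 667. The count over the 3 pathway lists, 7, was 11 with dim probe sets left out, 17 with array weights, 18 with the actin covariate, 1 with 4 group means, 0 without both WT arrays numbered 2, and 0 from either treatment alone; leaving out 1 array gave 1 to 9. Array subsets hold fewer samples; otherwise the cause was not tested.

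With the replicate number as a block, 1 member (Cxcr5), 801 probe sets in all and 12 of the pathway lists were called, and Il6st was lost (limma, BH adjusted p = 0.0531). The deviations of same-numbered arrays correlated at −0.29 to 0.63 over the 6 pairs of groups, highest between WT DMSO and WT TCDD, so the numbers do not pair the samples across all groups, while the WT arrays of 1 number deviated together.

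Some differences changed sign in places, and none of these was called. Not all were near 0 as first reported: the brighter Ms4a1 probe set read −0.325, the dimmer −0.21 and the brighter Irf4 probe set 0.20. The dimmer Icos probe set read −0.19 without both WT arrays numbered 2 and −0.11 from the DMSO arrays (−0.11 to 0.17 leaving out 1 array), the dimmer Slamf6 −0.10 to 0.23 leaving out 1 array, the dimmer Tox −0.035 from the TCDD arrays, and Il21 0.021 with array weights and 0.02 from the DMSO arrays (−0.16 to 0.0083 leaving out 1 array). Irf4 read −0.033 with array weights and −0.36 without both WT arrays numbered 2 (−0.0075 to 0.42 leaving out 1 array), Ascl2 −0.07 from the TCDD arrays, and Prdm1 −0.068 and −0.035 without both WT arrays numbered 2 and from the DMSO arrays (−0.00083 to 0.11 leaving out 1 array). Cd79a read 0.00063 and 0.055 with array weights and from the TCDD arrays. The brighter Ms4a1 probe set read 0.0027, 0.13 and 0.055 with array weights, without both WT arrays numbered 2 and from the TCDD arrays, the dimmer 0.013 and 0.225 in the first 2 of these (−0.38 to 0.023 leaving out 1 array), and Cd4 0.015 from the DMSO arrays. Icosl (dimmer probe set) read −0.068 and −0.065 without both WT arrays numbered 2 and from the TCDD arrays, Il21r −0.058 without both WT arrays numbered 2, and Tnfrsf14 −0.095, −0.105 and −0.0017 without both, from the DMSO arrays and with the actin covariate (−0.065 to 0.075 leaving out 1 array). Pdcd1lg2 passed with array weights and with the actin covariate.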
